A study of Mus musculus with 12 samples.

Results

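The transcripts described here encode the subunits of respiratory complex I, the NADH:ubiquinone oxidoreductase of mitochondria, that lie in the nuclear genome, as measured in mouse hearts. They were taken as every gene symbol in the count tables that begins with Nduf, followed by a, b, c, s, v or ab and then a number. The Ndufaf assembly factors and symbols that end in -ps were left out. That gave 41 of 55453 symbols, of which 38 passed the filter on low counts, among 14757 genes tested. The other 3 symbols, Ndufs6b, Ndufb4c and Ndufa11b, are annotated as processed pseudogenes and had 30, 18 and 8 counts over all 12 libraries. Of the 38 tested, 36 encode complex I subunits in current nomenclature. Ndufa4 is now counted with cytochrome c oxidase (complex IV) and Ndufa4l2 is its paralog. Both match the rule for the symbols and were kept as a group of their own.

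The series asked how doxorubicin (DOX), a chemotherapy drug with known toxicity to heart muscle, and the phosphodiesterase PDE10A, which degrades cAMP and cGMP, act on heart transcripts. Polyadenylated RNA from heart tissue was sequenced with a stranded kit, with 3 mice in each of 4 groups: PDE10A knockout (KO) mice given DOX, KO mice given vehicle, wild-type (WT) mice given DOX and WT mice given vehicle. All are labelled C57BL/6J. DOX was a single intraperitoneal bolus of 15 mg/kg, with 7 days given as its duration. The protocol allows male or female mice, gives no age or knockout allele, and also describes the PDE10A inhibitor TP-10, with which no library analysed here is labelled. Mice are named by the numbers in the titles: 18, 19 and 20 for KO DOX, veh_3393, veh_3394 and veh_3395 for KO vehicle, 21, 22 and 24 for WT DOX, and 1, 2 and 3 for WT vehicle. Values of a group are given in that order throughout.

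Complex I takes electrons from NADH, passes them along a chain of iron-sulfur clusters to ubiquinone and pumps protons across the inner mitochondrial membrane. Its matrix arm has an N module, where NADH binds and is oxidised, and a Q module, where ubiquinone is reduced. Its membrane arm has a proximal and a distal part, whose pumping subunits are made in the mitochondrion from the mt-Nd genes and are surrounded by accessory subunits from nuclear genes. The heart relies on oxidative phosphorylation, and its cardiomyocytes are dense in mitochondria.

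Library totals lay between 23846398 and 32921876 counts. Markers of cardiomyocytes summed to between 70313 and 96829 CPM (counts scaled to a library of a fixed size) in every library. Pde10a had a higher count in the libraries labelled KO (8.27, 8.49 and 9.09 CPM with DOX, 9.31, 11.9 and 9.13 with vehicle) than in those labelled WT (2.696, 2.08 and 1.79 with DOX, 3.38, 1.00 and 1.86 with vehicle). A whole-gene count cannot show whether exons are missing, so KO and WT mean the labels of the libraries throughout, and any direction between them depends on those labels. WT vehicle mouse 2 stood apart, with 19.5% of its counts on mitochondrially encoded genes against 24.4% to 33.6% elsewhere. WT DOX mouse 21 was apart from mice 22 and 24: the median over the members of log2 CPM less each gene's mean was -0.0028 in mouse 21, against -0.30 and -0.35 in the other WT DOX mice. KO DOX mouse 18 and KO vehicle mouse veh_3394 were high in atrial transcripts, at 1754 and 2338 CPM summed over the list, against 80.8 to 277 CPM in the other libraries.

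Promoter sequence was looked at because most of the subunits had the same order of libraries. RefSeq promoter windows on GRCm38.p6, from 250 bases before to 50 bases after each gene's start, were matched for 33 of the 38 tested genes. They were searched on both strands for the letters GCGCA, any base and then GCGC (NRF1), CCGGAAG (ETS factors such as GABPA), AAGGTCA (ERR receptors) and AAGATGGC (YY1), whose proteins are known regulators of respiratory chain genes. A gene was counted if any of its windows held a match. The NRF1 letters were found for 7 of 33 genes (21.2%), against 5.19% of 27025 gene symbols with a promoter window. The YY1 letters were in 7 (21.2%, against 3.19%), the ETS letters in 4 (12.1%, against 9.93%) and the ERR letters in 3 (9.09%, against 5.38%). At least 1 of the 4 was found for 18 genes (54.5%, against 21.1%). The 27025 symbols include genes that were not among those tested here. The shares among tested genes alone, or among promoters of like GC content, were not computed. Below are the 160 bases before the start for the 5 genes with the NRF1 letters in that stretch, and for Ndufv3, the gene with the lowest fold change with DOX in WT, where none of the 4 motifs was found. Capitals mark matches to the NRF1 letters and, in Ndufb4, also 1 match to the ERR letters. A match describes letters and does not show that a factor binds there.
Ndufs6 (chr13:73328483-73328642, minus strand): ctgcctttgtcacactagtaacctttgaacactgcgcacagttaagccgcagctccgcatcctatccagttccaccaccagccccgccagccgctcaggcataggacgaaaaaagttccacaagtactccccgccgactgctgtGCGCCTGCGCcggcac
Ndufa8 (chr2:36049339-36049498, minus strand): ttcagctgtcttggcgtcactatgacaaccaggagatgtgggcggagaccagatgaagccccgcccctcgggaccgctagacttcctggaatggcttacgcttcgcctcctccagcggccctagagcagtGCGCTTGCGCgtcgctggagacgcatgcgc
Ndufa11 (chr17:56717602-56717761, plus strand): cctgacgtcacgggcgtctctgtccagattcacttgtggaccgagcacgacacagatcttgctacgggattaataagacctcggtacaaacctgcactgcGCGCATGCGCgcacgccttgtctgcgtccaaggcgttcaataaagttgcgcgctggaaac
Ndufs5 (chr4:123718187-123718346, minus strand): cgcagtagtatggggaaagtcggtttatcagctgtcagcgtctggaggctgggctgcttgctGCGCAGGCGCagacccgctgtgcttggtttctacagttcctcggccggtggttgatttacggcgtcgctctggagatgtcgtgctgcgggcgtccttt
Ndufb4 (chr16:37654369-37654528, minus strand): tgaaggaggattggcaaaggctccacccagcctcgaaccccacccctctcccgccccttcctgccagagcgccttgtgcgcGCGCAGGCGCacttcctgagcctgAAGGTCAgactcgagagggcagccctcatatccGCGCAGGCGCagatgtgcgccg
Ndufv3 (chr17:31519955-31520114, plus strand): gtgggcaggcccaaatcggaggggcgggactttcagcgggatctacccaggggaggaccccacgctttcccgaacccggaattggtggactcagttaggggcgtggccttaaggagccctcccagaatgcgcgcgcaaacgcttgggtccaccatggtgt

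In WT hearts, DOX lowered most of these transcripts. Of the 38 tested, 34 fell and 0 rose by edgeR's quasi-likelihood test at an adjusted p under 0.05, whereas 9.2% of all 14757 genes were called lower and 9.39% higher. The median log2 fold change of the 38 was -0.63, against 0.00 over all genes tested, and the members ranged from -1.09 for Ndufv3 to 0.05 for Ndufs1. In 31 of 38 each WT DOX library lay below each WT vehicle library, which held for 15.8% of all genes. The 4 that were not called were Ndufs1, Ndufv1, Ndufa7 and Ndufb3. In RNA from whole heart tissue, fewer cells of a type and less RNA per cell cannot be told apart.

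The calls needed particular libraries. Without WT DOX mouse 22, or without WT DOX mouse 24, 0 of the 38 were called (1.23% and 1.22% of all genes). Without WT vehicle mouse 2 there were 8 (3.43% of all genes), namely Ndufv3, Ndufs7, Ndufs8, Ndufc1, Ndufa13, Ndufb7, Ndufb8 and Ndufb11, and without WT vehicle mouse 3 there were 18 (4.92% of all genes). The median fold change stayed below 0 each time, between -0.75 and -0.45. Fitted to the WT libraries alone, the test called 0 of the 38 and 0.141% of all genes, with a median of -0.63. The main fit shares 1 estimate of the spread with the KO groups, whose libraries lay closer together. The SD of the members' median of log2 CPM less each gene's mean was 0.32 in WT vehicle and 0.19 in WT DOX hearts. It was 0.057 in KO vehicle and 0.084 in KO DOX hearts (n = 3 each).

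**Figure D1:**
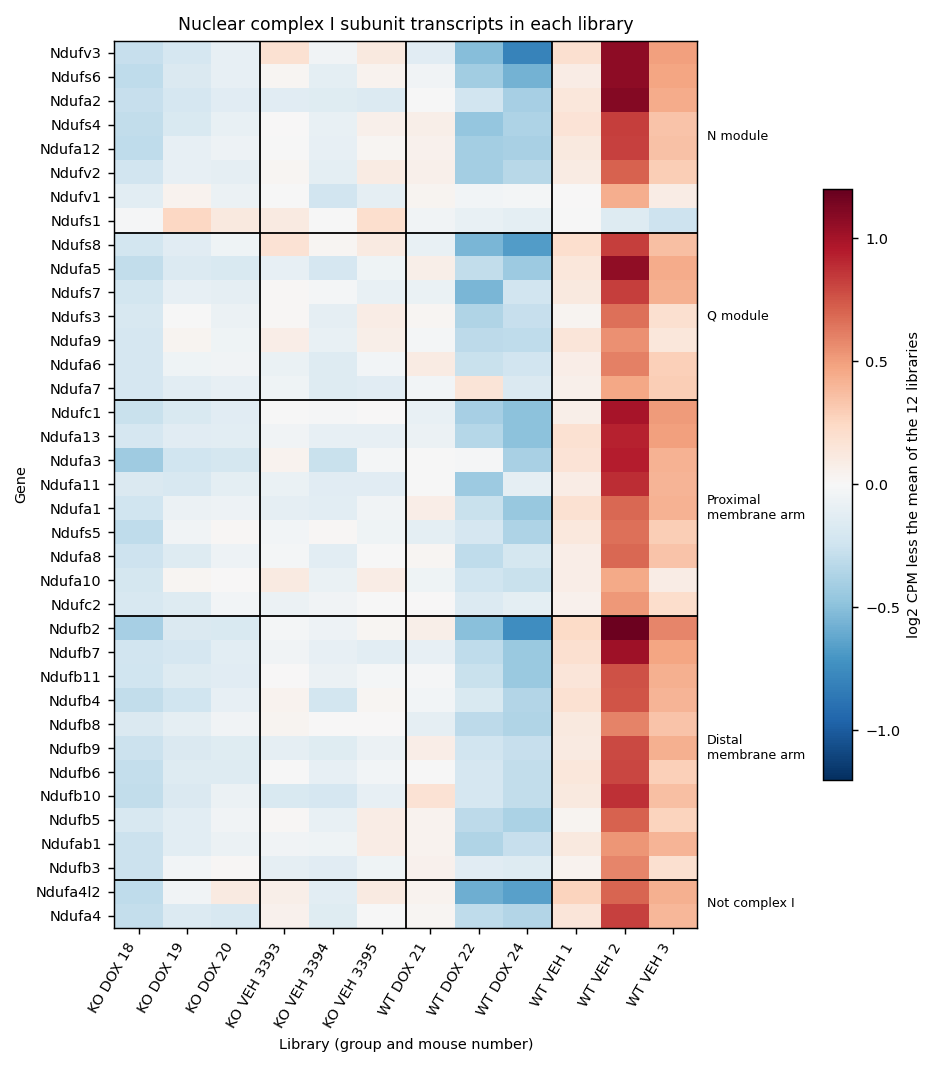
Each row is 1 of 37 of the tested genes, grouped by module and ordered within it by the fold change with DOX in WT, and each column is 1 library. Colour gives log2 CPM less that gene's mean over the 12 libraries (red higher, blue lower). WT vehicle mouse 2 is the reddest column for 36 of the 37 genes drawn, and WT DOX mice 22 and 24 hold the deepest blue.

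In the N module, 6 of 8 genes fell with DOX in WT, with a median log2 fold change of -0.70. Ndufv3 (chromosome 17, 31520115 to 31531331 on GRCm38), a small accessory subunit of the flavoprotein part, had the lowest fold change of all members. Ndufv3 stood at 199, 209.9 and 225 CPM in KO DOX hearts, 274, 234 and 262 in KO vehicle hearts, 219, 169.7 and 139 in WT DOX hearts and 276, 507 and 340.2 in WT vehicle hearts. Its 3 WT DOX libraries all lay below its 3 WT vehicle libraries, and mouse 2 was highest. It fell by 53% on the mean (176 ± 40.5 against 374 ± 119 CPM, SD, n = 3 each), a log2 fold change of -1.09 (SE 0.21, adjusted p = 0.0129) by edgeR. Ndufs4 (chromosome 13, 114287795 to 114388258) is an accessory subunit of this module whose loss causes a Leigh-like encephalopathy in mice. Ndufs4 stood at 161, 174 and 185 CPM in KO DOX hearts, 198, 186 and 206 in KO vehicle hearts, 207, 143 and 153 in WT DOX hearts and 221, 349 and 251 in WT vehicle hearts. The WT DOX libraries lay below the WT vehicle libraries, with mouse 21 well above mice 22 and 24. The log2 fold change by edgeR was -0.71 (SE 0.17, adjusted p = 0.0215). Ndufs6, Ndufa2, Ndufa12 and Ndufv2, a core iron-sulfur subunit, also fell, with log2 fold changes of -0.93, -0.82, -0.69 and -0.60 in that order.

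The N module also held the 2 genes with log2 fold changes nearest to 0. Ndufs1 (chromosome 1, 63143596 to 63176833), the largest core subunit, carries several of the iron-sulfur clusters. Ndufs1 stood at 699, 838 and 769 CPM in KO DOX hearts, 764, 704 and 813 in KO vehicle hearts, 689, 665 and 653 in WT DOX hearts and 705, 637 and 596 in WT vehicle hearts. WT DOX and WT vehicle libraries overlapped, and mouse 2 was not the highest. The log2 fold change by edgeR was 0.05 (SE 0.10, adjusted p = 0.758), the sole value above 0 among the 38, and it was -0.16 after adjustment for exon length and GC content and -0.0045 without WT vehicle mouse 3. Ndufv1 (chromosome 19, 4007384 to 4012806), the core subunit that binds NADH and flavin, gave -0.19 (SE 0.12, adjusted p = 0.26). Ndufv1 stood at 664, 751 and 692 CPM in KO DOX hearts, 727, 621 and 673 in KO vehicle hearts, 746, 711 and 715 in WT DOX hearts and 728, 982 and 774 in WT vehicle hearts. The groups overlapped, since WT DOX mouse 21 lay above WT vehicle mouse 1. Its value was 0.013 after the same adjustment, so the direction of neither gene was stable.

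In the Q module, 7 of 8 genes fell with DOX in WT, with a median of -0.51. Ndufs8 (chromosome 19, 3908863 to 3912774), a core subunit that carries iron-sulfur clusters near the ubiquinone site, had the lowest fold change. Ndufs8 stood at 161, 169.9 and 181 CPM in KO DOX hearts, 211, 190.4 and 202 in KO vehicle hearts, 175, 128 and 118 in WT DOX hearts and 215, 333 and 239 in WT vehicle hearts. The WT groups did not overlap. It fell by 46.5% on the mean (140.3 ± 30.8 against 263 ± 62.2 CPM, SD, n = 3 each), and edgeR gave a log2 fold change of -0.90 (SE 0.17, adjusted p = 0.0131). Ndufa7 (chromosome 17, 33824572 to 33838317), an accessory subunit, had the value nearest to 0 in this module. Ndufa7 stood at 124, 131 and 133 CPM in KO DOX hearts, 138, 128 and 129.6 in KO vehicle hearts, 139.5, 159 and 127 in WT DOX hearts and 149, 197 and 175 in WT vehicle hearts. WT DOX mouse 22 was the highest of its group, unlike in the other 37 genes, and lay above WT vehicle mouse 1. The log2 fold change of -0.29 (SE 0.11, adjusted p = 0.0883) did not pass edgeR's threshold. The core subunits Ndufs7 and Ndufs3 fell by edgeR with log2 fold changes of -0.76 and -0.51, and the accessory subunits Ndufa5, Ndufa9 and Ndufa6 with -0.81, -0.50 and -0.47. Of the 7 core subunits across the matrix arm, 5 fell, with a median of -0.51.

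**Figure D2:**
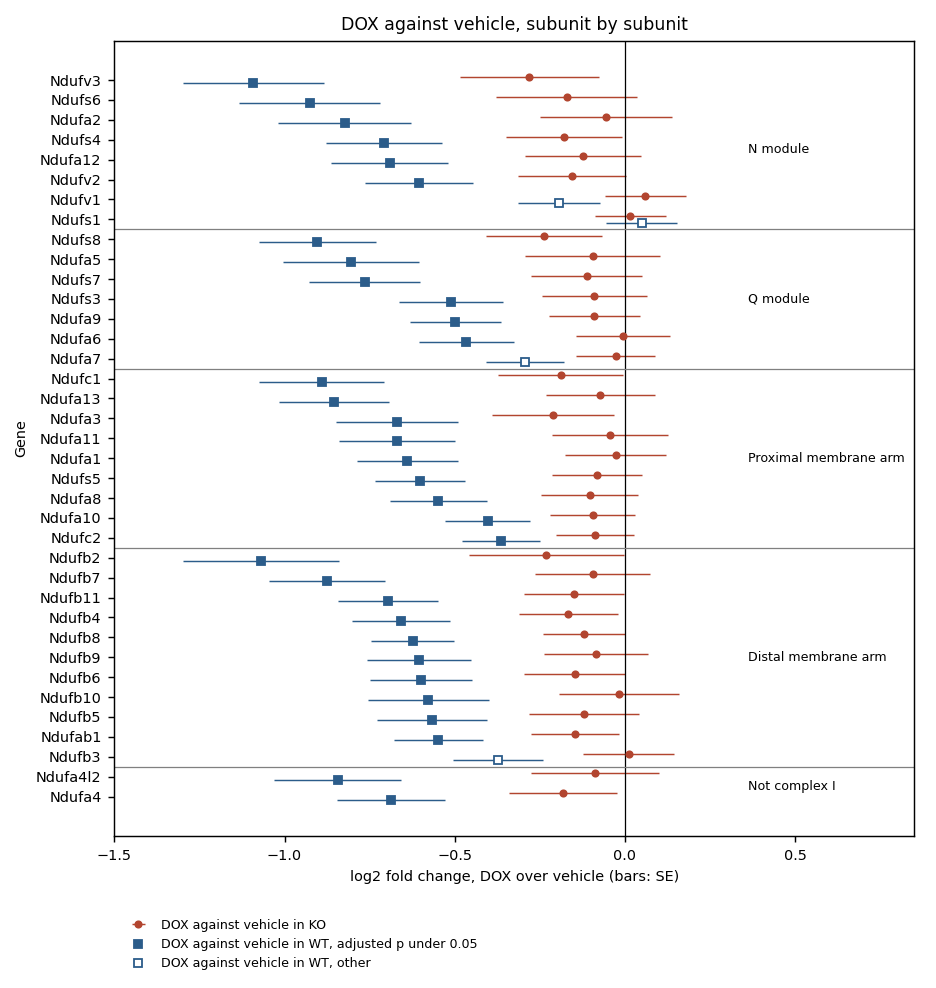
Log2 fold change of DOX over vehicle for 37 of the tested genes, in KO (circles) and in WT (squares, filled where the adjusted p was under 0.05), with bars for the standard error. The 33 filled squares lie left of 0 and down to -1.09, while the circles lie between -0.28 and 0.06.

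All 9 tested accessory subunits of the proximal membrane arm fell with DOX in WT, with a median of -0.64. Ndufc1 (chromosome 3, 51404677 to 51408988), a small membrane subunit, had the lowest fold change. Ndufc1 stood at 139.8, 148 and 153 CPM in KO DOX hearts, 167, 166 and 169 in KO vehicle hearts, 158, 127 and 119 in WT DOX hearts and 176, 334 and 239 in WT vehicle hearts. The WT groups did not overlap, and edgeR gave -0.89 (SE 0.18, adjusted p = 0.0159). Ndufc2 (chromosome 7, 97400003 to 97407802), which sits beside Ndufc1 in the membrane, had the value nearest to 0. Ndufc2 stood at 123, 127 and 137 CPM in KO DOX hearts, 134, 137 and 140.3 in KO vehicle hearts, 141, 126 and 130.01 in WT DOX hearts and 146, 202 and 163 in WT vehicle hearts. The WT DOX libraries lay below the WT vehicle libraries by a small margin, 141 CPM in mouse 21 against 146 CPM in mouse 1, and edgeR gave -0.36 (SE 0.11, adjusted p = 0.0457). The other 7 had log2 fold changes of -0.85 (Ndufa13, also known as GRIM-19), -0.67 (Ndufa3), -0.67 (Ndufa11), -0.64 (Ndufa1), -0.60 (Ndufs5), -0.55 (Ndufa8) and -0.40 (Ndufa10).

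In the distal membrane arm, 10 of 11 genes fell with DOX in WT, with a median of -0.60. Ndufb2 (chromosome 6, 39592574 to 39603382), a small accessory subunit, had the lowest fold change. Ndufb2 stood at 55.4, 64.6 and 64.2 CPM in KO DOX hearts, 71.9, 70.1 and 74.2 in KO vehicle hearts, 76.5, 51.6 and 43.6 in WT DOX hearts and 85.4, 165 and 109 in WT vehicle hearts. The WT groups did not overlap. It fell by 52.3% on the mean (57.2 ± 17.1 against 120.0 ± 41.0 CPM, SD, n = 3 each), with a log2 fold change of -1.07 (SE 0.23, adjusted p = 0.0165) by edgeR. Ndufb3 (chromosome 1, 58586384 to 58595964), another membrane subunit, had the value nearest to 0. Ndufb3 stood at 115, 135 and 139 CPM in KO DOX hearts, 128, 125 and 132 in KO vehicle hearts, 142, 125 and 124 in WT DOX hearts and 142, 206 and 157 in WT vehicle hearts. WT DOX mouse 21 and WT vehicle mouse 1 stood at the same level, and edgeR gave -0.37 (SE 0.13, adjusted p = 0.0677). Ndufab1 (chromosome 7, 122085403 to 122101886), the mitochondrial acyl carrier protein, also serves fatty acid synthesis and the assembly of iron-sulfur clusters outside complex I. Ndufab1 stood at 98.2, 108 and 111 CPM in KO DOX hearts, 114, 113 and 125 in KO vehicle hearts, 121, 91.2 and 96.9 in WT DOX hearts and 127, 169 and 155 in WT vehicle hearts. The WT groups did not overlap, and edgeR gave -0.55 (SE 0.13, adjusted p = 0.0204). The 8 others lay between -0.88 (Ndufb7) and -0.57 (Ndufb5), and all 8 passed the threshold.

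**Figure D3:**
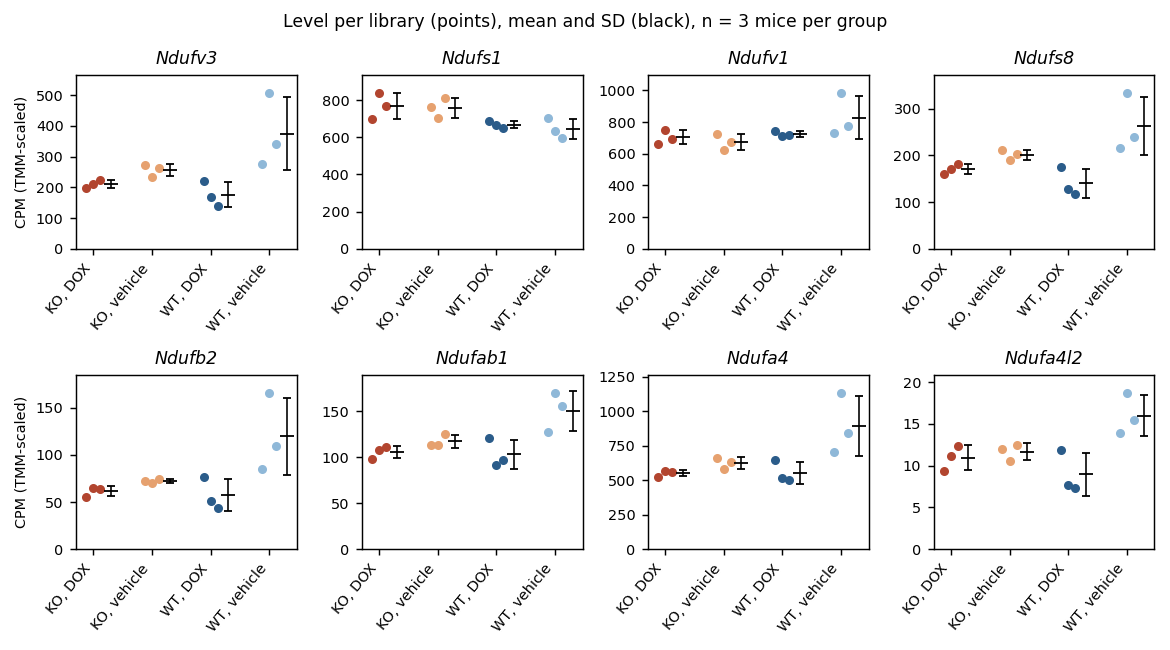
CPM in each library for 8 genes, with the mean and SD of 3 mice beside the points. Each axis starts at 0, and the groups run from KO DOX to WT vehicle. The WT vehicle group has the highest mean in each panel but that of Ndufs1, where KO DOX is highest with 768 CPM.

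Ndufa4 (chromosome 6, 11900292 to 11907497) and Ndufa4l2 (chromosome 10, 127514967 to 127517154), the pair not counted with complex I today, fell as well. Ndufa4 stood at 524, 568 and 558 CPM in KO DOX hearts, 661, 577 and 633 in KO vehicle hearts, 647, 515 and 499.7 in WT DOX hearts and 705, 1128 and 842 in WT vehicle hearts. Every WT vehicle library lay above the 9 others, and edgeR gave -0.69 (SE 0.16, adjusted p = 0.019) for DOX in WT. Ndufa4l2 stood at 9.34, 11.2 and 12.4 CPM in KO DOX hearts, 12.1, 10.5 and 12.4 in KO vehicle hearts, 11.9, 7.65 and 7.31 in WT DOX hearts and 13.9, 18.7 and 15.5 in WT vehicle hearts. The order was the same, with a value of -0.84 (SE 0.19, adjusted p = 0.0174). Per kilobase of annotated exon, Ndufa4 had the highest mean level of the tested members over the 12 libraries, at 474 CPM per kilobase, and Ndufa4l2 the lowest, at 10.9. Within complex I the levels per kilobase ran from 11.1 (Ndufb4) to 466 (Ndufb10), although the subunits are present in equal numbers in the complex apart from Ndufab1. Exon lengths that pool all annotated isoforms understate the level of genes with a long rare isoform. With the principal transcript alone, the longest where several ranked equally, the lowest in complex I was Ndufb2 at 17.8, then Ndufb4 at 21.9. The highest was Ndufb10 at 775 CPM per kilobase. The transcript taken for Ndufb2 had 4371 bases, so its level can be understated in the same way, and its rank depends on that choice.

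Annotated pseudogene copies with at least 95% identity over 100 bases held at most 2.67% of the counts of their member (Ndufs5), and the 3 pseudogenes named at the start had 30 counts or fewer. Ndufs1, Ndufb5, Ndufb6, Ndufa13 and Ndufb11 overlap Ino80dos, Mrpl47, Smim27, Tssk6 and Rbm10 in that order. The strand setting of the counting is not given in the sources used here, so reads in the overlaps cannot be assigned with certainty. Stretches of the same identity and length also lie in transcripts of other genes for Ndufc1 (6 genes), Ndufb2 (Braf and Gm42420), Ndufab1 (Gm44986), Ndufb8 (Gm20538) and Ndufb9 (Gm49356). The treatment of multi-mapped reads is not given in the sources used here, so reads lost to or gained from any of these copies were not measured, and the values of these genes are uncertain to that extent.

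In KO hearts, DOX moved none of these genes past the threshold. By edgeR 0 of 38 were called, against 0.0136% of all genes (0.00678% lower and 0.00678% higher), and 0 of 38 had an unadjusted p under 0.05, against 5.35% of all genes. DESeq2 and limma-voom called 0 as well, against 0.447% and 0.596% of all genes. The median log2 fold change was -0.10, 35 of 38 values were below 0 (48.3% of all genes), and in 13 each KO DOX library lay below each KO vehicle library (8.05% of all genes). The lowest values were those of Ndufv3, -0.28 (SE 0.20, adjusted p = 0.997), and Ndufs8, -0.24 (SE 0.17, adjusted p = 0.997), and the highest that of Ndufv1, 0.06 (SE 0.12, adjusted p = 0.997). Ndufv3 averaged 211 ± 12.9 CPM in KO DOX hearts and 257 ± 20.5 CPM in KO vehicle hearts (SD, n = 3 each), and its libraries did not overlap. Ndufab1 averaged 106 ± 6.85 CPM with DOX and 117 ± 6.77 CPM with vehicle, also without overlap. KO DOX mouse 18, which was high in atrial transcripts, was the lowest of its group for 37 of 38 genes (36.5% of all genes). Without it and KO vehicle mouse veh_3394, 0 of the 38 were called, against 0.00672% of all genes.

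The difference between genotypes in the DOX effect was tested as an interaction, the DOX effect in KO minus that in WT. The median over the 38 was 0.51 on the log2 scale, and 1 of 38 values, that of Ndufs1, was below 0 (50.2% of all genes). By edgeR 0 of 38 passed the threshold, against 0.21% of all genes, with 25 of 38 at an unadjusted p under 0.05 (16% of all genes). DESeq2 called 1 of the 38 (2.53% of all genes), limma-voom with quality weights 25 (13.9%), and edgeR without the filter on low counts 12 (3.7% of the 29571 genes it tested), all higher. The smallest adjusted p by edgeR was that of Ndufa13, 0.78 (SE 0.23, adjusted p = 0.173), and the largest value that of Ndufb2, 0.84 (SE 0.32, adjusted p = 0.261). For Ndufs1 the value was -0.03 (SE 0.15, adjusted p = 0.918). Without WT DOX mouse 21 edgeR called 2 of the 38 (3.43% of all genes). Whether a difference between genotypes was called depended on the tool and on the filter.

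Under vehicle, KO hearts had lower values than WT hearts for most members. The median log2 difference, KO over WT, was -0.48, with 37 of 38 below 0 (48% of all genes). In 32 each KO vehicle library lay below each WT vehicle library, against 14.8% of all genes. By edgeR 0 of 38 passed, against 2.88% of all genes in either direction and 1.09% lower, with 34 of 38 at an unadjusted p under 0.05 (26% of all genes) and the smallest adjusted p at 0.0503 (Ndufb7), 0.0508 (Ndufa13) and 0.0525 (Ndufa2). DESeq2 called 26 of the 38, and 11.4% of all genes in either direction. Limma-voom with quality weights called 34 (33 lower and 1, Ndufs1, higher), and 35.1% of all genes. EdgeR without the filter called 23, and 7.06% of the 29571 genes it tested. Without WT vehicle mouse 1 edgeR called 30 (17.7% of all genes), and without WT DOX mouse 21 it called 7 (4.88%). Without WT vehicle mouse 2 it called 0 (0.728%), and the median was -0.27.

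Ndufb7, an accessory subunit of the distal arm, shows the spread behind that comparison. Ndufb7 stood at 232, 238 and 249.7 CPM in KO DOX hearts, 264, 254 and 250.3 in KO vehicle hearts, 255, 221 and 200.2 in WT DOX hearts and 313, 551 and 378 in WT vehicle hearts. The KO vehicle libraries lay close together, while the WT vehicle libraries were spread, with mouse 2 at the top, and the groups did not overlap. It averaged 256 ± 7.18 CPM in KO vehicle hearts and 414 ± 123 CPM in WT vehicle hearts (SD, n = 3 each), a log2 difference of -0.69 (SE 0.17, adjusted p = 0.0503). This comparison and that of DOX in WT share the WT vehicle libraries, so a library that is high in that group lowers both values. The KO vehicle libraries are likewise shared with the comparison of DOX in KO.

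With DOX in both genotypes, the differences between KO and WT hearts were small. The median log2 difference, KO over WT, was 0.07, with 11 of 38 below 0 (47.7% of all genes). By edgeR 0 of 38 passed, against 0.42% of all genes, and 0 had an unadjusted p under 0.05, against 15.5% of all genes. DESeq2 and limma-voom also called 0 of the 38, against 3.21% and 6.71% of all genes. In 1 gene, Ndufs1, each KO DOX library lay above each WT DOX library, which held for 9.86% of all genes, and in 0 each lay below (9.75% of all genes). Ndufs1 averaged 768 ± 69.6 CPM in KO DOX hearts and 669 ± 18.3 CPM in WT DOX hearts (SD, n = 3 each), a log2 difference of 0.20 (SE 0.10, adjusted p = 0.377). The largest difference was that of Ndufa4l2, 0.30 (SE 0.19, adjusted p = 0.477), and the lowest that of Ndufa3, -0.16 (SE 0.18, adjusted p = 0.709).

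Most members ordered the libraries alike. For 37 of 38 genes the highest of the 12 libraries was WT vehicle mouse 2 (24.2% of all genes), and for 35 the WT vehicle libraries ran mouse 2, mouse 3, mouse 1 from high to low (30.6% of all genes). Each WT vehicle library lay above each of the other 9 in 27 genes (5.29% of all genes). WT DOX mouse 21 was the highest of its group in 37 (38.4% of all genes). The members' summed level was 9758, 10850 and 10824 CPM in KO DOX hearts, 11465, 10581 and 11477 in KO vehicle hearts, 11341, 9464 and 9158 in WT DOX hearts and 12204, 18362 and 13841 in WT vehicle hearts. The WT groups did not overlap in this sum, nor did KO vehicle and WT vehicle. KO DOX and KO vehicle did, since KO vehicle mouse veh_3394 lay below KO DOX mice 19 and 20.

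The nuclear subunits of complexes II to V followed the same pattern by library, as the plot of list medians shows. Relative to each gene's mean over the 12 libraries, the median of the complex I members less that of 41 subunits of complexes II to V lay between -0.064 and 0.036 on the log2 scale in every library. With DOX in WT, 28 of those 41 fell and 0 rose, with a median of -0.55. By complex, 1 of 4 subunits of complex II fell (Sdhb, -0.61, adjusted p = 0.0165), 6 of 9 of complex III, 12 of 13 of complex IV and 9 of 15 of complex V. Cox7a1, the muscle and heart form of a complex IV subunit, had the lowest value (-1.66, adjusted p = 0.01 by edgeR). Cox7a1 stood at 385, 432 and 455 CPM in KO DOX hearts, 662, 533 and 639 in KO vehicle hearts, 459, 236 and 198 in WT DOX hearts and 699, 1277 and 848 in WT vehicle hearts. The WT DOX libraries all lay below the WT vehicle libraries, and WT vehicle mouse 2 was again the highest. Uqcr11 of complex III (-1.08, adjusted p = 0.0107) and Atp5k of complex V (-0.95, adjusted p = 0.0161) also fell by edgeR. Under vehicle, 1 of the 41 was called lower in KO than in WT (Cox6a2, -0.61, adjusted p = 0.0461 by edgeR).

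Of 16 tested complex I assembly factors, which build the complex but are not part of it, 9 fell and 0 rose with DOX in WT, with a median of -0.40. Those with the smallest p by edgeR were Ecsit (-0.52, adjusted p = 0.0137), Ndufaf3 (-0.70, adjusted p = 0.0152), Tmem70 (-0.44, adjusted p = 0.0207) and Ndufaf8 (-0.82, adjusted p = 0.0212). Ndufaf8 stood at 14.2, 11.8 and 11.3 CPM in WT DOX hearts, against 15.8, 30.3 and 19.6 CPM in WT vehicle hearts, without overlap. Acad9, an assembly factor of the acyl-CoA dehydrogenase family, was higher in KO than in WT under vehicle (0.47, adjusted p = 0.0374 by edgeR), at 31.8, 29.2 and 35.6 CPM against 26.2, 21.4 and 22.1 CPM. No assembly factor was called in the other 3 comparisons.

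The mitochondrially encoded subunits departed from the nuclear ones mainly within the WT vehicle group, where their list medians ran in the opposite order. Elsewhere, as for the nuclear members, WT DOX mouse 21 was the highest of its group (0.089, against -0.23 and -0.35). KO DOX mouse 18 and KO vehicle mouse veh_3394 were likewise the lowest of theirs. WT vehicle mice 1 and 3 (0.36 and 0.23) lay above all WT DOX mice. Of 6 tested mt-Nd genes 0 were called with DOX in WT, with a median of -0.23, and mt-Nd4l had 0 counts in every library. In WT vehicle mouse 2, where the nuclear members were highest, the mt-Nd genes summed to 81879 CPM, the lowest of the 12 libraries, against 110891 to 167446 CPM in the others. Mt-Nd1, the subunit at the joint of the arms, stood at 46162, 37675 and 36073 CPM in WT DOX hearts and 53007, 30956 and 49004 CPM in WT vehicle hearts. The groups overlapped and edgeR gave -0.15, adjusted p = 0.586. The values of mt-Nd2, mt-Nd3, mt-Nd4, mt-Nd5 and mt-Nd6 were -0.06, -0.65, -0.32, 0.22 and -0.85. Because these genes take a large share of each library, the fit was repeated with all mitochondrially encoded genes left out of totals and scaling, an alternative chosen after seeing the data, and 34 of 38 members were again called lower, with a median of -0.64.

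**Figure D4:**
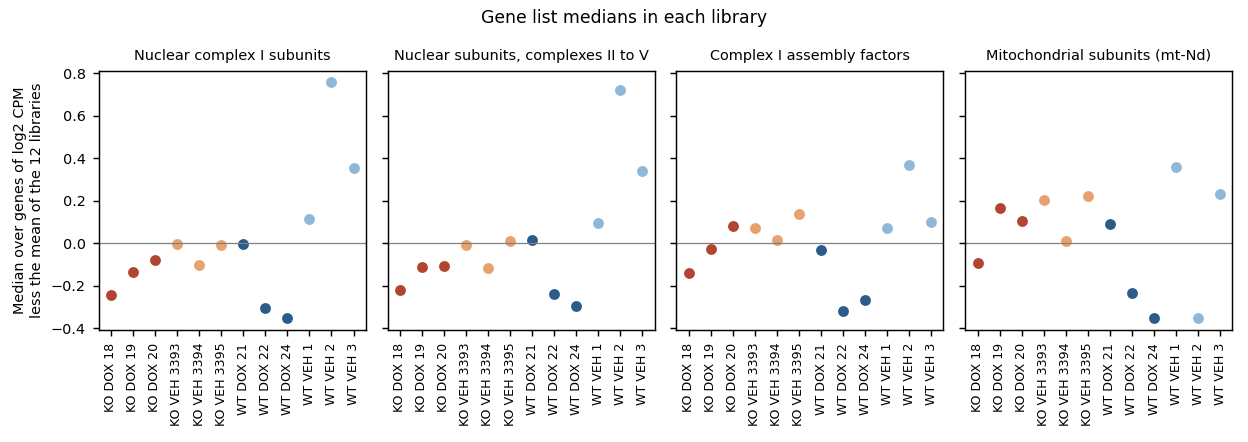
Each point is 1 library, and its height is the median over the genes of a list of log2 CPM less the gene's mean over the 12 libraries. Groups run from KO DOX on the left to WT vehicle on the right. The nuclear complex I panel and that of complexes II to V match closely, with WT vehicle mouse 2 at 0.76 and 0.72, whereas that library is at -0.35 in the mt-Nd panel.

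The members are short genes, and short genes as a class were lower with DOX in WT. Their median annotated exon length was 1532 bases, against 4258.5 bases over 14680 tested genes with an annotation, and 28 of 38 lay among the 3670 shortest (up to 2584 bases). Among those the median log2 fold change with DOX in WT was -0.25 over all genes and -0.65 over the 28 members, whereas it was 0.20 over the 3670 longest. Under vehicle, KO over WT, the 3670 shortest had a median of -0.20 over all genes and -0.49 over the members. With offsets for exon length and GC content fitted in each library, the members' median with DOX in WT was -0.40 and 20 of 38 were called, against 10.4% of all genes in either direction. The 14 calls lost include those of Ndufs3, Ndufs5, Ndufa3, Ndufa6, Ndufa8, Ndufa9, Ndufa10, Ndufa11, Ndufb6, Ndufb9, Ndufb10, Ndufc2 and Ndufa4l2. Among the members themselves, log2 fold change and log2 length of the principal transcript had a Pearson correlation of 0.07, a description over 38 genes of the same libraries. That length is another measure than the annotated exon length behind the other values here.

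**Figure D5:**
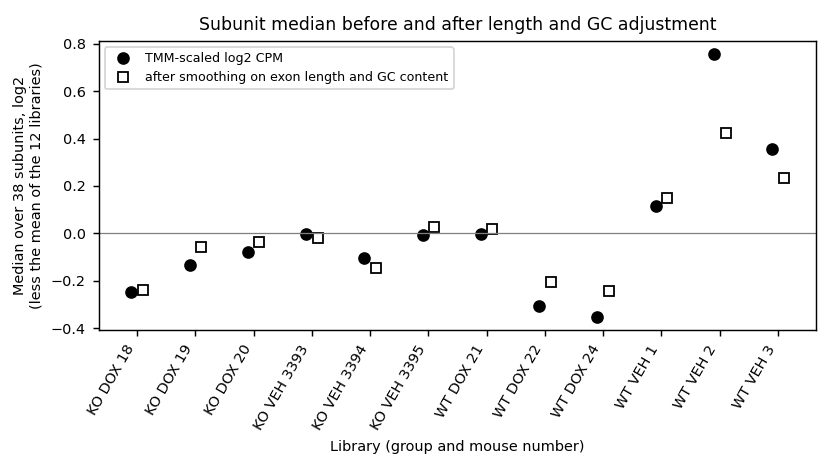
Median over the 38 members of log2 CPM less each gene's mean over the 12 libraries, in each library, before (filled circles) and after (open squares) adjustment for exon length and GC content. WT vehicle mouse 2 is at 0.76 before and 0.42 after, and WT DOX mouse 24 at -0.35 before and -0.24 after.

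Markers of several cell types differed between WT DOX and WT vehicle hearts, as the members did. Of 12 cardiomyocyte markers, 7 had log2 fold changes below 0 with DOX in WT, with a median of -0.12 and the highest value in Mybpc3 (0.41). By edgeR 3 were called lower (Ckm, Tnni3 and Myl3) and 0 higher. The sum of the 12 was 83915, 70313 and 74020 CPM in WT DOX hearts against 86897, 96829 and 86459 CPM in WT vehicle hearts. Of 10 endothelial markers 6 fell, with a sum of 1413, 1306 and 1097 CPM in WT DOX hearts against 1985, 2020 and 2071 CPM in WT vehicle hearts. That sum was 1387, 1307 and 1345 CPM in KO vehicle hearts, below the same WT vehicle libraries, and 3 of the 10 were called lower in KO than in WT under vehicle (Fabp4, Egfl7 and Kdr). Of 7 tested neutrophil markers 5 rose with DOX in WT, and their sum was 10.2 CPM in mouse 21, against 39.2 and 30.3 CPM in mice 22 and 24 and 3.78 to 5.53 CPM in WT vehicle hearts. All 5 tested erythroid markers fell, with sums of 0.395, 0.146 and 0.144 CPM in WT DOX hearts against 50.9, 164 and 172 CPM in WT vehicle hearts. Of 9 fibroblast, 9 macrophage, 6 atrial and 1 tested lymphocyte marker, 0 were called, while 1 of 8 pericyte and smooth muscle markers (Kcnj8) and 1 of 6 adipocyte markers (Fabp4, also on the endothelial list) fell. Between KO and WT hearts under vehicle, where most members were lower in KO, most of these sums did not follow. Their means in KO and WT vehicle hearts were 89265 and 90062 CPM for cardiomyocyte markers. They were 143 and 129 CPM for erythroid markers and 9.64 and 4.73 CPM for neutrophil markers. The part of these cell types in the members' values was not tested.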

How the data were processed

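Each of the 12 libraries had 1 table of whole-number counts per gene symbol, deposited by the authors. Per the submitters' processing notes, fastp 0.20.0, STAR 2.7.0f, Subread 1.6.4 and featureCounts were used. Of the build, annotation, strand setting and handling of multi-mapped reads, the sources used here say nothing. The counts were fitted in R 4.3.3 with edgeR 4.0.16. Genes were kept by filterByExpr with the groups given (14757), libraries were scaled by TMM, and all 12 libraries entered 1 model with a mean per group, so that the groups share 1 estimate of the spread. Quasi-likelihood tests were adjusted by the Benjamini-Hochberg method across the 14757 genes, with 0.05 as the threshold, and each SE was computed from the log2 fold change and F. The p-values measure the spread between separate mice pooled over the 4 groups, not that of only the 2 groups compared. CPM used the TMM-scaled totals. The alternatives tried were the size factors and the test of DESeq2 1.42.0, no TMM, no filter, a minimum of 1 CPM in 3 libraries, limma 3.58.1 (voom with quality weights), a fit to only the 2 groups compared, a covariate for the ending of the title prefix, offsets for exon length and GC content (mgcv 1.9.3), and omission of each library. Positions and exon lengths are those of GENCODE M21 on GRCm38, which held 98.4% of the symbols, and promoters those of RefSeq on GRCm38.p6.

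The members, role lists and marker lists were chosen with earlier results of these data known. Values in every library were given for the lowest and highest fold change with DOX in WT of each role list, any member called in another comparison or of opposite sign, Ndufs1, Ndufv1, Ndufs4, Ndufab1, Ndufa4 and Ndufa4l2, and the highest and lowest level per kilobase. From other lists up to 4 called genes with the smallest p and the mt-Nd genes were named. The library values of Ndufb7, Ndufaf8 and Acad9, and Ndufb4 and Ndufb10 as the extremes per kilobase within complex I, were chosen after their values were seen. Some genes are counted in the lists but not reported by name here. The biological coefficient of variation was 17.5%.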

Additional observations from a re-analysis of the deposited data

How the results depend on the processing

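The members' median log2 fold change kept its sign in each comparison under every alternative that was run. For KO against WT under DOX it came down to 1.0e-05 with 1 library left out, so no stable direction can be read there. With DOX in WT it lay between -0.75 and -0.45 when 1 library was left out and was -0.40 with exon length and GC offsets. The called count in that comparison was 34 (18.6% of all genes called). It became 0 in a fit of the 2 groups compared (0.141%) and 20 with exon length and GC offsets (10.4%). When 1 library was left out it was 0 to 36. It was 0 without WT DOX mouse 22 (1.23%) or 24 (1.22%), 8 without WT vehicle mouse 2 (3.43%), 18 without WT vehicle mouse 3 (4.92%) and 36 without WT vehicle mouse 1 (27.8%). The count was 28 without TMM (18.9% of all genes called), 26 with a covariate for the title prefix (10.8%) and 28 without both atrial-high libraries (12.8%, added after seeing the data). In the other alternatives that keep all libraries it was 32 to 36 (11.8% to 37.8%). The ending behind that covariate is on the titles of WT vehicle mouse 1, WT DOX mice 22 and 24, all KO DOX mice, veh_3394 and veh_3395. WT vehicle mice 2 and 3, WT DOX mouse 21 and veh_3393 lack it. Within each WT group the mice with the ending had the lower members' medians. In KO vehicle hearts the median was -0.0021 in veh_3393, without the ending, and -0.10 and -0.0058 in veh_3394 and veh_3395, with it. The titles do not say what the ending stands for. With DOX in WT, the fit of the 2 groups had fewer samples behind its estimate of the spread. It also left out the KO groups, whose members' medians varied less (SD 0.057 with vehicle and 0.084 with DOX) than those of WT (0.32 and 0.19). The part of each in the lower count was not tested.

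For KO against WT under vehicle the called count of 0 became 2 with DESeq2 size factors (2.91% of all genes), 2 with at least 1 CPM in 3 libraries (4.08%) and 2 with exon length and GC offsets (2.36%). It was 2 without mitochondrially encoded genes (2.99%, added after seeing the data), 23 without a filter (7.06%), 26 with DESeq2 (11.4%) and 34 with limma-voom (35.1%). With 1 library left out it was 0 to 30, with 17.7% of all genes called where it was 30. The median in that comparison then lay between -0.61 and -0.27. The interaction's called count of 0 became 12 without a filter (3.7% of all genes), 1 with DESeq2 (2.53%) and 25 with limma-voom (13.9%). With 1 library left out it was 0 to 2, with 3.43% of all genes called where it was 2, and the median lay between 0.32 and 0.64. With 1 library left out, the median for DOX in KO (-0.10) lay between -0.14 and -0.05, and it was -0.03 with the title prefix covariate and -0.06 with the offsets. That for KO against WT under DOX (0.07) lay between 0.00 and 0.19 with 1 library left out, and was 0.18 with the covariate and 0.16 with limma-voom. All of these called 0. The causes were not tested.

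Ndufs1 with DOX in WT changed sign with exon length and GC offsets (-0.16) and without WT vehicle mouse 3, in a range of -0.0045 to 0.12 with 1 library left out, and Ndufv1 with the offsets (0.013). The interaction of Ndufs1 changed sign with the offsets (0.15) and without KO DOX mouse 18 (0.030), KO vehicle mouse veh_3395 (0.017) or WT vehicle mouse 3 (0.021), in a range of -0.10 to 0.030. No paired analysis was possible because the mouse numbers differ between the groups. The limits are 3 mice a group, a WT vehicle group with a wide spread, a title ending that is uneven between the groups, and labels that Pde10a counts do not bear out. KO vehicle mice are also numbered apart from the rest, so that any difference in their handling cannot be told apart from the genotype effect under vehicle.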

Other observations

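Genes that work beside complex I changed in both directions. Of 16 tested genes that supply or use NADH or ubiquinone, 3 fell and 1 rose with DOX in WT. Etfb, a subunit of the electron transfer flavoprotein, fell (-0.89, adjusted p = 0.0173 by edgeR), as did Coq4 (-0.69, adjusted p = 0.0174) and Coq6 (-0.50, adjusted p = 0.0202) of ubiquinone synthesis. Nnt, the mitochondrial transhydrogenase that links NADH to NADPH and in which the C57BL/6J strain is known to carry a deletion, rose (0.45, adjusted p = 0.0462 by edgeR). Under vehicle Nnt was higher in KO than in WT (1.38, adjusted p = 0.000947 by edgeR), at 1124 ± 118 CPM (SD, n = 3) in KO hearts against 432 ± 81.4 CPM (SD, n = 3) in WT hearts, without overlap, and Etfb was lower (-0.82, adjusted p = 0.0461). Nnt stood at 728 ± 93.3 CPM (SD, n = 3) in KO DOX hearts and 591 ± 10.8 CPM (SD, n = 3) in WT DOX hearts.

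Of 12 iron-sulfur cluster assembly genes, which supply the clusters complex I carries, 4 fell and 0 rose with DOX in WT, among them Glrx5 (-0.70, adjusted p = 0.0268 by edgeR), Bola3 (-0.52, adjusted p = 0.0322) and Lyrm4 (-0.42, adjusted p = 0.0382). Of 12 regulators of mitochondrial biogenesis 1 fell, Esrra (-0.33, adjusted p = 0.0285), and 1 rose, the coactivator Ppargc1a (0.70, adjusted p = 0.0252 by edgeR), at 201 ± 27.3 CPM (SD, n = 3) in WT DOX hearts against 124 ± 35.3 CPM (SD, n = 3) in WT vehicle hearts. Of 12 other mitochondrial markers, such as Vdac1 and Cs, 0 fell and 1 rose with DOX in WT (Tomm20, 0.34, adjusted p = 0.0215 by edgeR), and their median was 0.03. Under vehicle 1 of these, Opa1 of inner membrane fusion, was higher in KO than in WT (0.57, adjusted p = 0.0447 by edgeR).

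Ndufb1-ps, left out of the members by its symbol, had a level like theirs, at 165 ± 33.8 CPM (SD, n = 3) in WT DOX hearts against 272 ± 64.9 CPM (SD, n = 3) in WT vehicle hearts (-0.72, adjusted p = 0.021 by edgeR), without overlap.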
